A study of Rattus norvegicus with 16 samples.

Results

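The values of 5 probe sets of a rat oligonucleotide expression array are described: 1 each for Gcg, Ppy, Pyy, Sst and Gc. They were named by probe set identifier as the hormone genes of islet cells other than beta cells together with Gc. Earlier results of these data were known when they were chosen. All 5 of 5 exceeded the lower limit for testing, as did 10078 of the 15923 probe sets in all. The RNA came from isolated rat pancreatic islets exposed for 32 h to an adenovirus at 50 viral particles per cell and kept for another 16 h in vehicle or compound. There were 3 arrays of null adenovirus with vehicle (0.004% DMSO), 3 of null adenovirus with GW347845 at 200 nM, 4 of PPARgamma adenovirus with vehicle and 4 of PPARgamma adenovirus with GW347845 at 200 nM. GW347845 activates PPARγ (peroxisome proliferator-activated receptor gamma), a ligand-dependent transcription factor best known from fat cells. Every group had thus received a virus. The islets were whole, so each value is a sum over their cell types. The labels do not say which cells took up the virus, which promoter drove the cDNA, or whether replicate numbers stand for separate islet preparations, so p-values measure only the spread between these arrays. A further array, deposited with identical values as replicate 2 of both null virus groups, was left out.

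Pancreatic islets hold beta cells, which secrete insulin, and smaller populations of endocrine cells that each secrete another peptide. Gcg encodes proglucagon, cut in alpha cells to glucagon, which raises blood glucose. Ppy encodes pancreatic polypeptide, the product of PP cells, and Pyy encodes peptide YY, a related peptide of the same family made in gut endocrine cells and in some islet cells. Sst encodes somatostatin, the product of delta cells, which restrains the release of both insulin and glucagon. Gc encodes the vitamin D binding protein, a plasma carrier of the albumin family made mainly in liver and, within islets, enriched in alpha cells. In rodent islets alpha, delta and PP cells lie mostly in the outer mantle, and PP cells are more frequent in the part of the pancreas that derives from the ventral bud.

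The promoters of the 4 hormone genes are shown because 3 of them, Gcg, Ppy and Pyy, varied together from array to array while Sst did so less closely. Each sequence covers 250 bases before and 50 after the RefSeq start on the rat assembly GRCr8, read 5′ to 3′ along the gene, with capitals marking the TATA box (TATAAA, either strand) and the cAMP response element (TGACGTCA). The RefSeq table held an entry for all 5 genes.
Gcg, chr3:67531484-67531783, minus strand: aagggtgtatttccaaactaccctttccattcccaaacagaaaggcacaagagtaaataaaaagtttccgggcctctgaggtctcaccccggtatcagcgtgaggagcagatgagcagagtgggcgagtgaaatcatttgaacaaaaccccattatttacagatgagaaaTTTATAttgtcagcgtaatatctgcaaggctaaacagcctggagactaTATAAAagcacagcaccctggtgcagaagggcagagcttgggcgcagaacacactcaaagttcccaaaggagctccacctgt
Ppy, chr10:87556187-87556486, minus strand: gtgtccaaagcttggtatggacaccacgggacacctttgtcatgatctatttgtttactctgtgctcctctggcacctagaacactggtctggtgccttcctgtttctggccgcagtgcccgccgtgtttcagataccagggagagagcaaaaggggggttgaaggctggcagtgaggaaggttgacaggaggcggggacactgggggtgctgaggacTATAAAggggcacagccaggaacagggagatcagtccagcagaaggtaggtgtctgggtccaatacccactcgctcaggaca
Pyy, chr10:87562421-87562720, minus strand: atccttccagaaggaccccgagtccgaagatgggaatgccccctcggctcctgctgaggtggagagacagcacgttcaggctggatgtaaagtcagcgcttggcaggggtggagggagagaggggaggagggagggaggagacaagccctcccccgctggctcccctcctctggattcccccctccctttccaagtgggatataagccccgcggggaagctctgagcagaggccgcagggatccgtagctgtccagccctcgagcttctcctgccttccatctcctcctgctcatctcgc
Sst, chr11:90461296-90461595, plus strand: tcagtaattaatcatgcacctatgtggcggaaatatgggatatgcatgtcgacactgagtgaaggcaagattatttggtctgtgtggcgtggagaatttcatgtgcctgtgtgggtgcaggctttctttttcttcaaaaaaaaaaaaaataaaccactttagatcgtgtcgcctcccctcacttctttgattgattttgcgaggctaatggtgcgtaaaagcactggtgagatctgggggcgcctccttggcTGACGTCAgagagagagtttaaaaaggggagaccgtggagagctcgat
Ppy and Pyy are neighbours on chromosome 10, with 0 other protein-coding genes starting between them. The Gcg and Ppy windows each held a TATA box whose first base lay 32 bases before the start, and Gcg held another on the opposite strand, for 2 in all. Of 33469 rat promoters of this length, 14.2% held TATAAA. The Sst window held the palindrome TGACGTCA 1 time, beginning at position 253 of the window and thus after the RefSeq start. The motif was in 1.83% of all promoters. The homeodomain core TAAT, counted on both strands, was found 2 times in Gcg, 5 times in Sst, 6 times in Gc and 0 times in Ppy and Pyy, against 60.6% of all promoters with at least 1. Overlapping matches were counted. The PPAR response element, a direct repeat of AGGTCA with 1 base between the copies, was found in 0 of the 5 windows and in 0.0538% of all promoters. A single AGGTCA, which every full element also holds, was in 0 of the 5 and in 16.2% of all.

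Pparg bore out the virus labels, and no gene here checks the vehicle and compound labels. Pparg read 25.6 to 51.4 in the 6 null virus arrays and 4593 to 6199 in the 8 PPARγ virus arrays. The insulin genes were abundant and varied little, with Ins1 at 4627 to 7093 and Ins2 at 3314 to 4421 over the 14 arrays. Both were lowest in PPARγ virus replicate 2, in vehicle and in compound. Of 11 measured acinar markers, 8 were under the lower limit for testing. Array medians lay between 56.4 and 67.5. Signal at the 3 prime end of a transcript over that at its 5 prime end, which rises as RNA breaks, was 7.58 to 14.9 for beta-actin and 8.36 to 18.9 for Gapdh.

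The hormone genes differed far more between replicate numbers than between treatments. Over the 14 arrays, intensity ranged 58.0-fold for Ppy, 31.8-fold for Pyy, 23.2-fold for Gcg and 8.25-fold for Sst, but only 1.73-fold for Gc. On the log2(intensity + 4.6) scale, the ranges of Ppy, Pyy, Gcg and Sst stood at ranks 4, 10, 15 and 72 among 10078 tested probe sets, while that of Gc (0.79) was near the median of 0.77. In whole islets, fewer cells of a type and less RNA per cell cannot be told apart.

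Ppy, the pancreatic polypeptide gene, had the widest range. With the null virus its intensity was 1708, 918 and 3919 in vehicle and 2106, 1004 and 2906 in compound (replicates 1, 3 and 4). With the PPARγ virus it was 2884, 134, 2754 and 692 in vehicle and 2689, 67.6, 2172 and 720 in compound (replicates 1 to 4). Replicate 2 of the PPARγ virus was the lowest in both treatments, and the next lowest array of its group was 5.18-fold higher in vehicle and 10.7-fold higher in compound. The same arrays had the highest beta-actin 3 prime over 5 prime values of their groups. These were 13.41 beside 7.58 to 10.17 in vehicle and 14.88 beside 10.47 to 11.64 in compound. Gapdh did not share this order. Its value was 8.36 in vehicle, the lowest of that group, and 9.22 in compound, beside 8.39 to 11.04. Null virus compound replicate 3 was also high, at 14.54 for beta-actin and 18.85 for Gapdh. It had the lowest Ppy (1004) but the highest Gcg (3305) of its group. The null virus array left out stood at 14.04 for beta-actin and 10.09 for Gapdh, with Ppy at 312.9. The part of RNA quality in the low values was not tested. The 4 groups overlapped throughout.

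Pyy, the peptide YY gene, followed the same order of numbers within the PPARγ virus, apart from replicates 1 and 3, which were close. With the null virus it read 824, 485 and 1584 in vehicle and 985, 627 and 1030 in compound (replicates 1, 3 and 4). With the PPARγ virus it read 1485, 115, 1589 and 255 in vehicle and 1549, 49.9, 1537 and 169 in compound. Replicates 1 and 3 of the PPARγ virus were thus high, and replicates 2 and 4 were low, in both treatments.

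Gcg, the proglucagon gene, was close to even among the 6 null virus arrays used, which hold no number 2, and uneven among PPARγ virus arrays, which do. Its intensity was 2621, 2834 and 3423 with the null virus in vehicle and 2879, 3305 and 3282 in compound (replicates 1, 3 and 4), a 1.31-fold range in vehicle and a 1.15-fold range in compound. With the PPARγ virus it was 3788, 421, 4192 and 1231 in vehicle and 3606, 181, 3911 and 1221 in compound, a 9.96-fold and a 21.6-fold range. The null virus array with both labels, left out here, read 1043, below those 6. As for Ppy and Pyy, PPARγ virus replicates 2 and 4 were below each of the 6 null virus arrays used, and here replicates 1 and 3 were above every one of them. Replicate 4 was not below the array left out for Gcg, nor for Ppy (692 and 720 beside 312.9). For Pyy it was above that array in vehicle (255 beside 237) and below it in compound (169).

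Sst, the somatostatin gene, had its own pattern. It read 172, 332 and 238 with the null virus in vehicle and 173, 425 and 194 in compound (replicates 1, 3 and 4). It read 294, 272, 1254 and 223 with the PPARγ virus in vehicle and 512, 155, 1279 and 170 in compound (replicates 1 to 4). Replicate 3 was the highest of its group in all 4 groups, with the largest gap in the PPARγ virus groups. PPARγ virus replicate 2, which was far below the rest for Gcg, Ppy and Pyy, was above replicate 4 for Sst in vehicle.

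Gc, the vitamin D binding protein gene, changed little. Its intensity was 1678, 2220 and 2556 with the null virus in vehicle and 1615, 2198 and 2609 in compound (replicates 1, 3 and 4). It was 2077, 1698, 2454 and 1991 with the PPARγ virus in vehicle and 1932, 1505, 2336 and 1880 in compound (replicates 1 to 4). The order of the replicate numbers was the same in both treatments of a virus. The other Gc probe set was dim, at 50.6 to 119, and its r with the first was 0.69 over the 14 arrays.

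**Figure D1:**
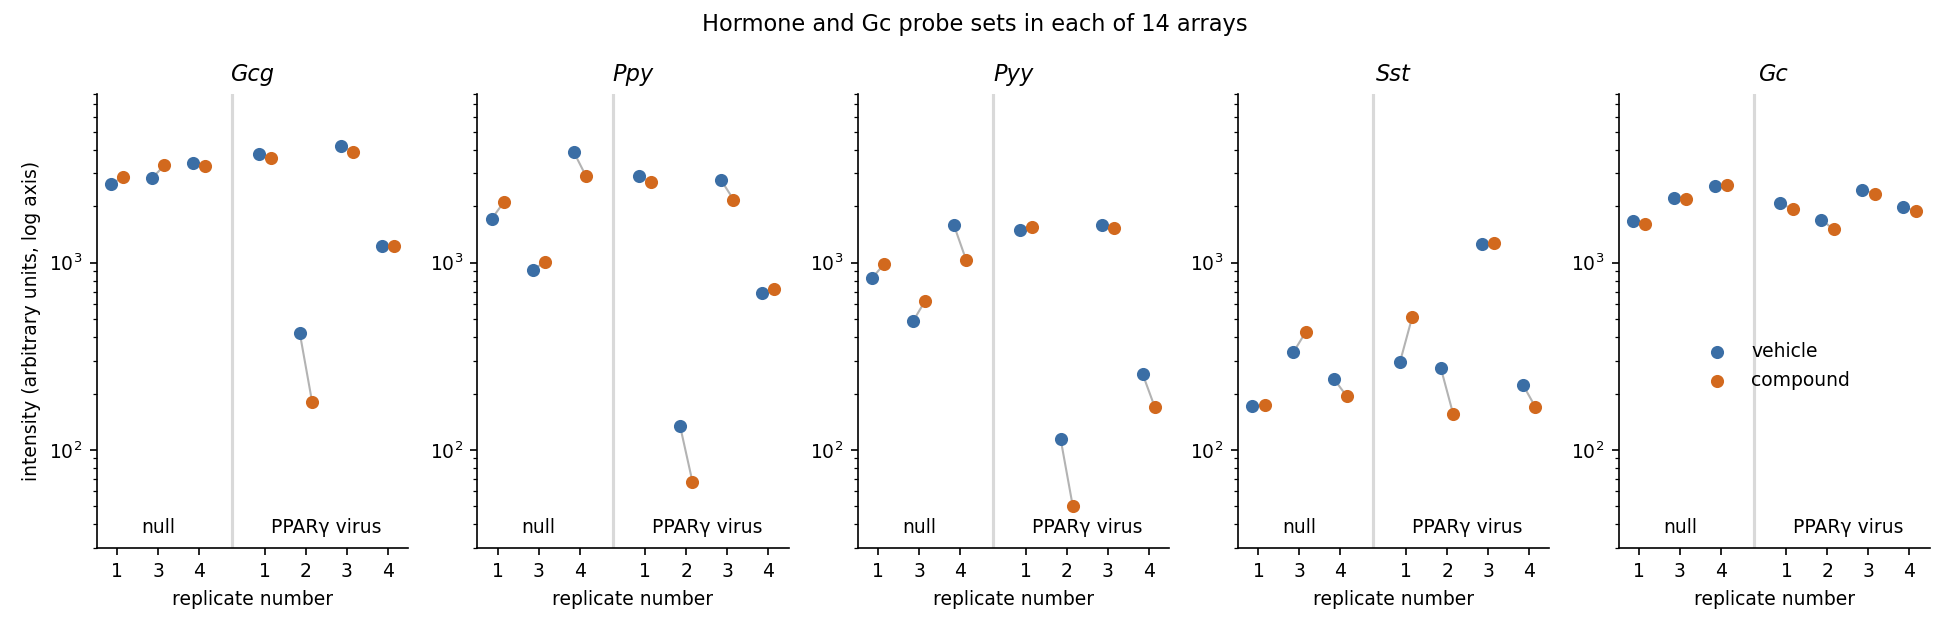
Intensity (log axis) of the 5 probe sets in each of 14 arrays, by virus and replicate number; a grey line joins the vehicle and compound arrays of a number. For Gcg, Ppy and Pyy with the PPARγ virus, pairs 2 and 4 lie below pairs 1 and 3 by more than the points of a pair differ. Some other pairs overlap, such as those of Gcg with the null virus and numbers 2 and 4 of Sst with the PPARγ virus. Ppy runs from 67.6 in PPARγ virus compound replicate 2 to 3919 in null virus vehicle replicate 4, and Gc stays between 1505 and 2609.

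Vehicle and compound arrays of the same virus and number differed less than numbers did. Mean intensity of such a pair ranged 27.7-fold for Ppy over the 4 numbers of the PPARγ virus, from 100.6 in number 2 to 2787 in number 1, and 3.55-fold over the 3 numbers of the null virus, from 961 in number 3 to 3413 in number 4. For Pyy the ranges were 19.0-fold and 2.35-fold, for Gcg 13.5-fold and 1.22-fold, for Sst 6.45-fold and 2.19-fold, and for Gc 1.496-fold and 1.568-fold. The highest number was not the same under both viruses for any gene but Sst: number 4 was the highest null virus pair for Gcg, Ppy, Pyy and Gc, but with the PPARγ virus it was the lowest for Sst and the next to lowest for the other 4. The lowest number could not be compared among these pairs, since null virus number 2 was left out; the array deposited under both of its labels read below all 6 null virus arrays for Gcg (1043), Ppy (312.9), Pyy (237) and Gc (1551), the same 4 genes for which number 2 was the lowest PPARγ virus pair. Within a pair, the median difference was 0.10 for Gcg, 0.30 for Ppy, 0.37 for Pyy, 0.35 for Sst and 0.07 for Gc on the log2 scale. The largest was 2.29-fold for Gcg, 2.19-fold for Pyy, 1.91-fold for Ppy, 1.73-fold for Sst and 1.13-fold for Gc.

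A moderated F test of the replicate number within each virus asked whether arrays of a number share a level. All 5 genes passed, in limma with Benjamini-Hochberg adjustment over all tested probe sets, where 33.3% of the probe sets passed. Ppy had F = 152 (adjusted p = 5.64e-07), Pyy F = 79.7 (adjusted p = 8.69e-06) and Gcg F = 79.0 (adjusted p = 8.74e-06), at ranks 9, 21 and 22. Gc had F = 30.3 (adjusted p = 2.29e-04) at rank 144 and Sst F = 27.1 (adjusted p = 3.53e-04) at rank 169. About 1 probe set in 3 thus passed, and the 4 hormones and Gc were among them. At an unadjusted p under 0.05 in this F test there were 4722 probe sets. All 5 passed with any 1 array left out. This test sets aside an incomplete pair, so leaving out 1 array took out both arrays of its virus and number. The F of Sst was lowest, at 7.27, without an array of PPARγ virus number 3 and highest, at 73.2, without one of number 1, and stood above 40 without one of number 2. Leaving out an array of PPARγ virus number 2 gave the lowest F of Ppy (86.7) and the highest of Gcg (132). An array of null virus number 1 gave the lowest F of Gc (18.4), and one of null virus number 4 the highest of Pyy (134). With a number taken to be shared by both viruses, 974 probe sets passed instead of 3356 and Gc did not (adjusted p = 0.0675).

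The share of the sum of squares that lay between numbers was 87.4% for Pyy, 86.6% for Ppy, 82.9% for Sst, 81.9% for Gcg and 92.2% for Gc, beside a median of 59.1% over all tested probe sets. Group accounted for 15.9% in Gcg, 12.2% in Ppy, 10.9% in Sst, 10.4% in Pyy and 7.24% in Gc, beside a median of 16.8%. The SD left within pairs on the log2 scale was 0.29 for Ppy, 0.32 for Gcg, 0.39 for Pyy and 0.40 for Sst, above the median of 0.15, and 0.03 for Gc. The SD within groups was 1.83 for Ppy, 1.72 for Pyy, 1.41 for Gcg and 1.07 for Sst, beside a median of 0.22. Gc was at 0.28. The hormone genes therefore carried wide intervals in any comparison that does not pair the arrays.

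**Figure D2:**
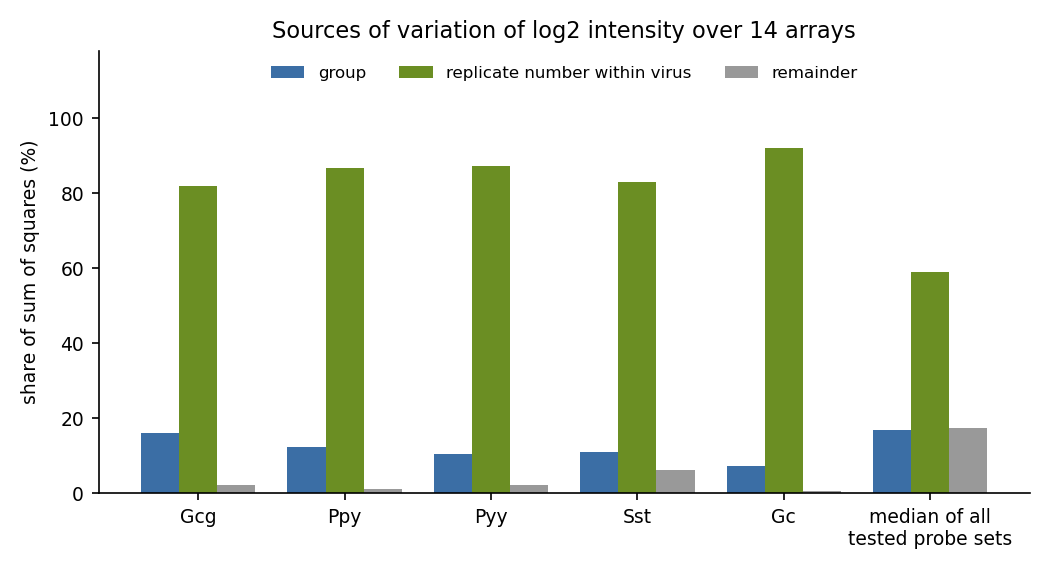
Share of the sum of squares of log2 intensity (percent) assigned to group, to replicate number within virus and to the remainder, for each gene and as the median over 10078 tested probe sets. The bars of the number reach 81.9% to 92.2% in the 5 genes against a median of 59.1%.

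With vehicle alone, the arrays of both viruses compare islets with and without the added receptor before any agonist. Replicate numbers were set within virus, so this comparison also sets unlike numbers against each other. None of the 5 genes passed in limma (0 of 5, where 0.0397% of tested probe sets passed). Mean Gcg intensity was 2960 ± 415 (SD, n = 3) in null virus arrays and 2408 ± 1864 (SD, n = 4) in PPARγ virus arrays, a log2 change of -0.79 ± 0.90 (SE; adjusted p = 1.00). Ppy was 2182 ± 1556 and 1616 ± 1409 (SD, n = 3 and 4), and Pyy was 965 ± 563 and 861 ± 784. Sst was higher in mean with the PPARγ virus, at 247 ± 80.2 and 511 ± 496, and Gc was 2151 ± 443 and 2055 ± 312. Every one of these differences was smaller than the SD of the PPARγ virus group.

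The 95% interval of the log2 change in vehicle ran from -2.71 to 1.13 for Gcg, from -3.46 to 1.51 for Ppy, from -3.06 to 1.60 for Pyy and from -0.77 to 2.14 for Sst. That of Gc was narrower, from -0.45 to 0.34, and excluded a change of 1 log2 unit. Number 2 had PPARγ virus arrays in this comparison and no null virus array. With numbers 1, 3 and 4 only, a choice made after the data were seen, the log2 change was -0.13 for Gcg, -0.05 for Ppy, -0.02 for Pyy, 0.86 for Sst and 0.03 for Gc. The negative values of Gcg, Ppy and Pyy were thus several times smaller without number 2. Number 2 held the lowest PPARγ virus array of these genes in vehicle and in compound. Leaving it out therefore had to raise the PPARγ virus means, and numbers were not taken as matched across viruses.

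In compound, the virus comparison gave -1.24 ± 0.90 (SE) for Gcg, -1.30 ± 1.16 for Ppy, -1.16 ± 1.09 for Pyy, 0.58 ± 0.68 for Sst and -0.15 ± 0.19 for Gc on the log2 scale. Again 0 of 5 passed in limma (adjusted p = 0.784 to 0.911), where 0.705% of tested probe sets did. With numbers 1, 3 and 4 only, these became -0.29, -0.18, -0.21, 0.98 and -0.04. Group means with the null virus in compound were 3156 ± 240 for Gcg, 2006 ± 955 for Ppy, 880 ± 221 for Pyy, 264 ± 140 for Sst and 2141 ± 499 for Gc (SD, n = 3). With the PPARγ virus in compound they were 2230 ± 1820 for Gcg, 1412 ± 1224 for Ppy, 826 ± 828.96 for Pyy, 529 ± 527 for Sst and 1913 ± 340 for Gc (SD, n = 4).

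Setting receptor and agonist together against the double control gave the same picture, with the null virus vehicle arrays shared with the comparison in vehicle. The log2 change was -1.14 ± 0.90 (SE) for Gcg, -1.30 ± 1.16 for Ppy, -1.16 ± 1.09 for Pyy, 0.60 ± 0.68 for Sst and -0.16 ± 0.19 for Gc. With numbers 1, 3 and 4 only it was -0.19 for Gcg, -0.18 for Ppy, -0.21 for Pyy, 1.00 for Sst and -0.06 for Gc. None of the 5 passed (adjusted p = 0.826 to 0.899 in limma; 0.665% of tested probe sets passed). The order of the 4 group means was null virus compound, null virus vehicle, PPARγ virus vehicle and PPARγ virus compound for Gcg. For Ppy, Pyy and Gc null virus vehicle came first and null virus compound next, and for Sst the PPARγ virus groups came first. Neighbours in each of these orders differed by less than the SD of at least 1 of the groups.

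**Figure D3:**
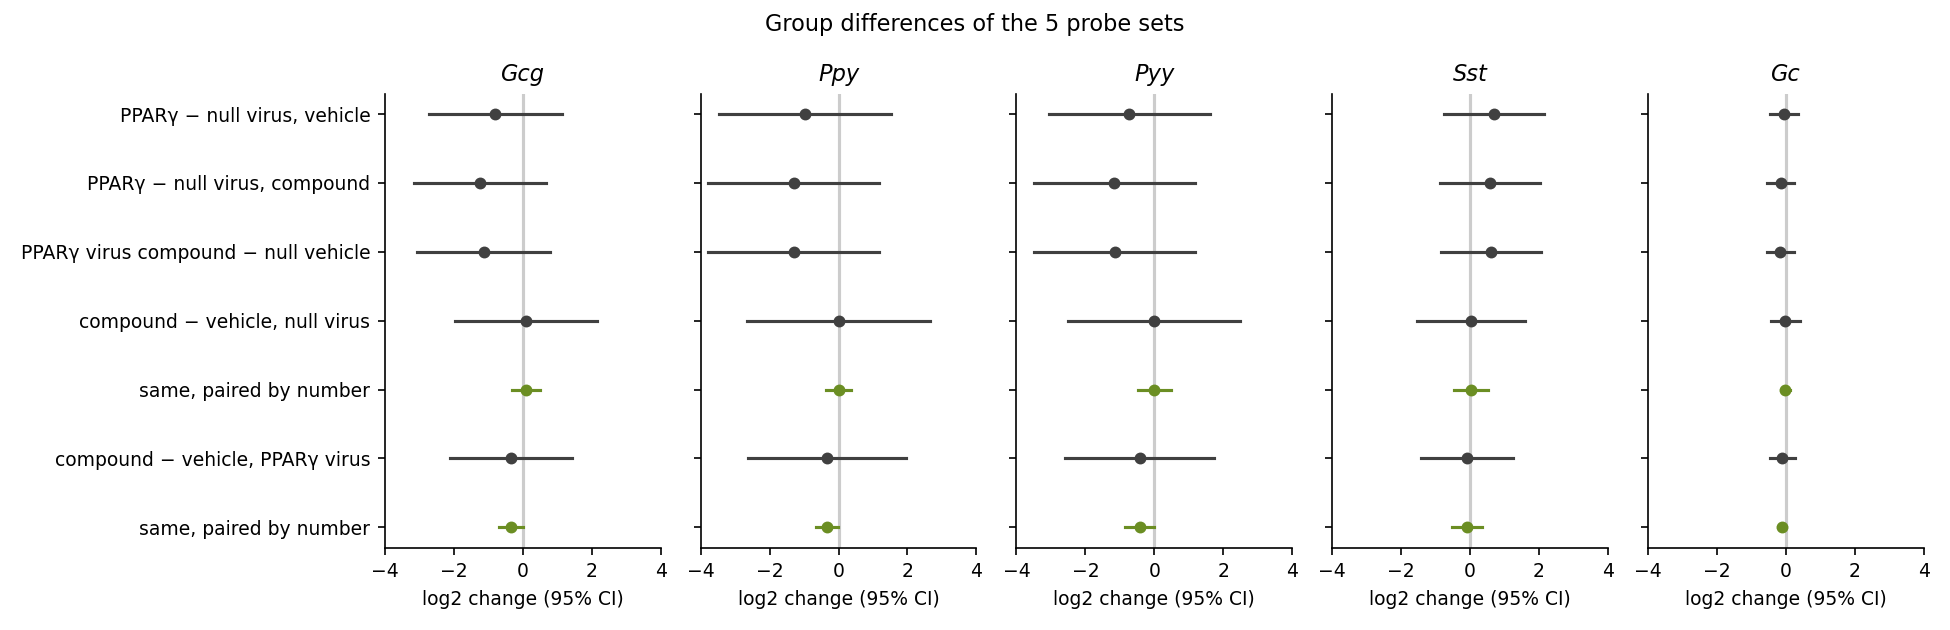
Log2 change with its 95% confidence interval for each gene in 5 group differences; green marks the compound effects estimated within pairs of the same number. Without pairing every interval includes 0, that of Ppy in vehicle from -3.46 to 1.51, and those of Gc are the narrowest; pairing shortens the intervals of the compound effects.

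Under the null virus the arrays show the response to GW347845 without added receptor, and numbers pair the arrays. Gcg was higher with compound in replicates 1 and 3, by 0.14 and 0.22 on the log2 scale, and stood at -0.06 in replicate 4. Ppy gave 0.30, 0.13 and -0.43, and Pyy gave 0.26, 0.37 and -0.62 in the same order. Sst gave 0.01, 0.35 and -0.29, and Gc gave -0.05, -0.01 and 0.03. All 4 hormone genes were thus lower with compound in replicate 4 and higher in the other 2 pairs.

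The fitted log2 change with the replicate block within virus was 0.10 ± 0.18 (SE) for Gcg, with a 95% interval from -0.30 to 0.50. It was 0.00 ± 0.17 for Ppy (-0.37 to 0.37), 0.00 ± 0.22 for Pyy (-0.48 to 0.48), 0.02 ± 0.23 for Sst (-0.48 to 0.52) and -0.01 ± 0.06 for Gc (-0.14 to 0.11). None passed with or without the block (adjusted p = 1.00 in limma), where 0% of tested probe sets passed either way. At an unadjusted p under 0.05 there were 95 probe sets without the block and 411 with it. An effect of GW347845 on these genes beyond the intervals was not seen, and a smaller one was not detectable with 3 pairs.

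Under the PPARγ virus, where the receptor was abundant, Gcg was lower with compound in 4 of 4 pairs, but by -0.07, -0.10 and -0.01 in replicates 1, 3 and 4 and by -1.20 in replicate 2 alone. Ppy gave -0.10, -0.94, -0.34 and 0.06 in replicates 1 to 4. Pyy gave 0.06, -1.13, -0.05 and -0.58. The largest difference of each of these 3 genes came from number 2, whose vehicle array already had the lowest values of its group, and Pyy was also well below vehicle in number 4. Sst gave 0.79, -0.79, 0.03 and -0.38, with no common direction. Gc was lower in 4 of 4 pairs, by -0.10, -0.17, -0.07 and -0.08.

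With the replicate block within virus, the log2 change was -0.35 ± 0.16 (SE) for Gcg (95% interval -0.69 to -0.0013; adjusted p = 0.571), -0.33 ± 0.15 for Ppy (-0.65 to -0.01; adjusted p = 0.557) and -0.43 ± 0.19 for Pyy (-0.84 to -0.01; adjusted p = 0.557). It was -0.09 ± 0.20 for Sst (-0.52 to 0.34; adjusted p = 0.926) and -0.11 ± 0.05 for Gc (-0.22 to 0.0029; adjusted p = 0.587). These intervals are not adjusted for the number of probe sets. None of the 5 passed with the block, where 0.397% of tested probe sets did, or without it, where 0.0595% did (adjusted p = 1.00 in limma). With the block and numbers 1, 3 and 4 only, the changes were -0.06 for Gcg, -0.13 for Ppy, -0.19 for Pyy, 0.15 for Sst and -0.09 for Gc, so number 2 carried most of the first 3. In 7 of 7 pairs the compound array had the higher 3 prime over 5 prime value for beta-actin, by a mean of 0.30 on the log2 scale (Gapdh in 4 of 7), and its part in these differences was not tested.

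Whether the response to the agonist differed between viruses was tested by the interaction. With the block it was -0.44 ± 0.24 (SE) for Gcg, -0.33 ± 0.23 for Ppy, -0.43 ± 0.29 for Pyy, -0.11 ± 0.30 for Sst and -0.09 ± 0.08 for Gc on the log2 scale (adjusted p = 0.884 to 0.973 in limma). With numbers 1, 3 and 4 only it was -0.16 for Gcg, -0.13 for Ppy, -0.19 for Pyy, 0.12 for Sst and -0.07 for Gc. None of the 5 passed, where 0.0496% of tested probe sets passed with the block and 0% without it. At an unadjusted p under 0.05 there were 143 probe sets without the block and 585 with it.

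Over all 7 pairs, an exact two-sided sign-flip permutation test was made for each gene, with 0.0156 as the smallest possible p and no adjustment over the 5 genes. The mean log2 difference, compound minus vehicle, was -0.15 ± 0.47 (SD, n = 7 pairs) for Gcg (exact p = 0.625, lower in 5 of 7 pairs). It was -0.19 ± 0.42 for Ppy (exact p = 0.313, lower in 4 of 7), -0.24 ± 0.55 for Pyy (exact p = 0.328, lower in 4 of 7) and -0.04 ± 0.52 for Sst (exact p = 0.922, lower in 3 of 7). Gc gave -0.07 ± 0.06 (exact p = 0.0469, lower in 6 of 7 pairs), with an SD about as large as the mean. Leaving out any pair but null virus number 4 took the exact p of Gc above 0.05, to 0.0625 without null virus number 3 and to 0.0938 without each of the other 5. The Gc difference was -0.05 without PPARγ virus number 2. It was -0.01 in the 3 null virus pairs and -0.11 in the 4 PPARγ virus pairs (exact p = 0.75 and 0.125, with too few pairs to reach 0.05). The other Gc probe set stood at -0.17 ± 0.11 (SE) with the PPARγ virus and at 0.15 ± 0.12 with the null virus, neither of which passed.

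**Figure D4:**
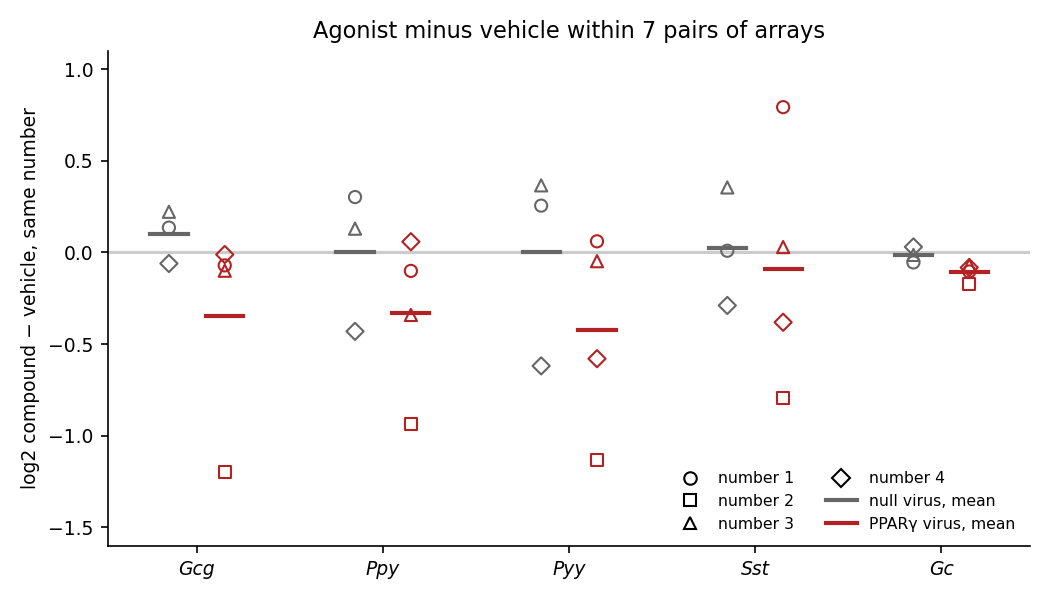
Log2 difference, compound minus vehicle, in each of 7 pairs of arrays of the same virus and number, with the mean of each virus as a bar. Number 2 of the PPARγ virus, at -1.20 for Gcg, -0.94 for Ppy and -1.13 for Pyy, lies apart from the other pairs, and all Gc differences lie between -0.17 and 0.03.

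The members' own co-variation was described by Pearson's r of log2 values after subtracting group means. The 14 arrays form 7 pairs, so r describes these arrays and is given without a p. Gcg, Ppy and Pyy moved together, at r = 0.95 for Gcg and Ppy, 0.95 for Gcg and Pyy and 0.96 for Ppy and Pyy. Sst was less close to them, at 0.69 with Gcg, 0.67 with Pyy and 0.52 with Ppy, and Gc stood at 0.65, 0.62, 0.59 and 0.63 with Gcg, Ppy, Pyy and Sst. Without PPARγ virus number 2, over 12 arrays, r was 0.93 for Ppy and Pyy, 0.94 for Gcg and Pyy and 0.79 for Gcg and Ppy. Sst was then at 0.75 with Gcg, 0.59 with Pyy and 0.33 with Ppy.

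Within the viruses the picture differed. Among the 6 null virus arrays, Ppy and Pyy kept r = 0.97, but Gcg was at 0.44 with Ppy and 0.48 with Pyy. There Sst was at -0.65 with Ppy, -0.57 with Pyy and 0.39 with Gcg. Among the 8 PPARγ virus arrays, r was 0.99 for Gcg and Ppy, 0.97 for Gcg and Pyy and 0.96 for Ppy and Pyy. There Sst was at 0.66 with Ppy, 0.72 with Gcg and 0.79 with Pyy. The pair of neighbouring genes, Ppy and Pyy, had r above 0.9 under both viruses. Gcg spans little among the null virus arrays used, and the difference in r between viruses was not tested. Gc with Gcg gave 0.86 among null virus arrays and 0.91 among PPARγ virus arrays, where Gc was about as close to Ppy (0.88), Pyy (0.86) and Sst (0.85). Without number 2, over 12 arrays, r of Gc was 0.43 with Gcg, 0.35 with Ppy and 0.33 with Pyy.

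**Figure D5:**
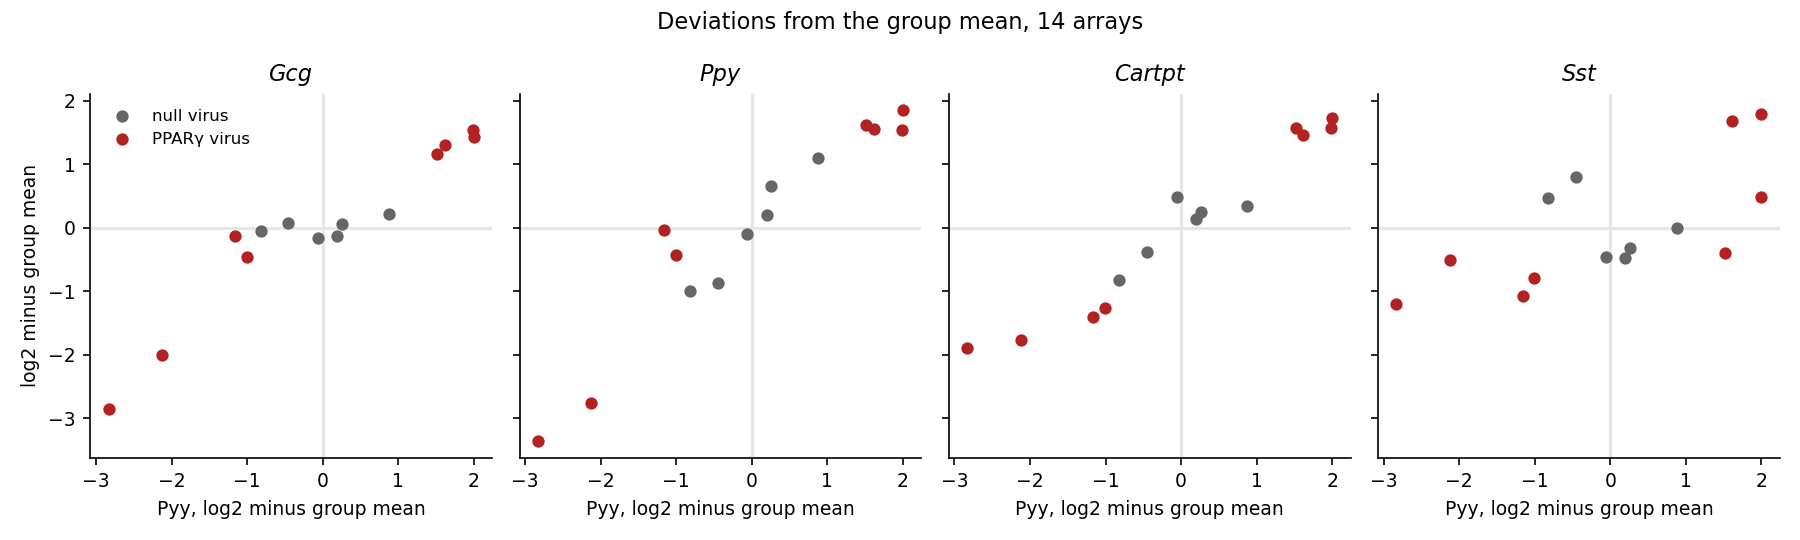
Log2 intensity minus the group mean in 14 arrays, for Gcg, Ppy, Cartpt and Sst against Pyy; grey points are null virus arrays and red points PPARγ virus arrays. Ppy follows Pyy under both viruses (r = 0.97 and 0.96), Gcg does so mainly among red points, Cartpt follows Pyy (r = 0.97) and Sst scatters.

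Other genes known from alpha, delta and PP cells mostly passed the test of the number too, and they moved with the hormones to unlike degrees. The lists below leave out the 5 genes themselves, and their counts stand beside 33.3% of all tested probe sets. Of 5 tested alpha cell genes, 5 passed the test of the number. Slc38a5, a glutamine transporter of alpha cells, read 1001.7 and 764.7 in vehicle and compound of PPARγ virus replicate 2, and 3054 and 3323 in replicate 3 (adjusted p = 9.87e-06; r = 0.97 with Pyy and 0.94 with Gcg). Ttr, which encodes the thyroid hormone carrier transthyretin, read 71.0 and 42.0 in replicate 2, 465 and 629 in replicate 1 and 476 and 506 in replicate 3 (adjusted p = 4.17e-05; r = 0.98 with Pyy). Pcsk2, the convertase that frees glucagon from its precursor, spanned 394 to 1259 (adjusted p = 0.0199 in the number test). Tm4sf4 spanned 566 to 1004 (adjusted p = 0.00811) and the transcription factor gene Pou3f4 spanned 6.50 to 53.8 (adjusted p = 0.0459). With Gcg, r was 0.85 for Pcsk2, 0.44 for Pou3f4 and 0.20 for Tm4sf4.

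Of 4 tested delta cell genes, 3 passed the number test: Hhex, a transcription factor of delta cells (adjusted p = 0.00645), Rbp4 (adjusted p = 0.0127) and Isl1 (adjusted p = 0.0150). Ghsr, the ghrelin receptor, spanned 27.3 to 47.6 and did not pass. With Sst itself, Isl1 had r = 0.81, Hhex 0.60, Rbp4 0.41 and Ghsr 0.11. Both tested PP cell genes passed the number test, Npy, which encodes neuropeptide Y (adjusted p = 1.60e-04), and Meis2 (adjusted p = 5.62e-04). With Ppy, r was 0.77 for Npy and 0.57 for Meis2. In the test of the compound under the PPARγ virus with the block, 0 members of these 3 lists passed. Their median log2 changes were -0.08 for alpha, 0.04 for delta and 0.04 for PP cell genes, beside -0.02 over all tested probe sets.

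Among other peptide genes, 5 of 8 tested passed the number test. The CART prepropeptide gene Cartpt spanned 116 to 1495 (adjusted p = 4.12e-07), with 144 and 116 in PPARγ virus replicate 2, 205 and 165 in replicate 4, and 1494 and 1495 in replicate 1. Its r was 0.97 with Pyy, 0.89 with Ppy and 0.88 with Gcg. The amylin gene Iapp (adjusted p = 0.00859) and Npy also passed. Ghrl, the ghrelin gene, spanned 44.9 to 121 (adjusted p = 0.0414) and had r = 0.29 with Gcg, while Penk, the proenkephalin gene, ran the other way (r = -0.65 with Gcg, adjusted p = 0.0493).

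Of 12 tested genes that process and store prohormones, 9 passed the number test. The amidating enzyme gene Pam, which finishes PP and PYY, had an adjusted p of 3.73e-04 and r = 0.95 with Pyy. Chgb (adjusted p = 3.23e-04), Chga (adjusted p = 4.73e-04), Pcsk1n (adjusted p = 0.00140) and Scg5 (adjusted p = 0.00206) were the other 4 of the 5 with the smallest p. Chga, which encodes the granule protein chromogranin A, read 430 and 339 in PPARγ virus replicate 2 and 983 and 1037 in replicate 1. Among receptors of islet and incretin hormones, 5 of 12 measured were bright enough to test and 2 passed, Gipr (adjusted p = 1.36e-05), the receptor of GIP, which none of the 5 genes encodes, and Glp1r (adjusted p = 0.00903), the receptor of another product of proglucagon. The somatostatin receptor genes Sstr2 and Sstr3 and the PP receptor gene Npy4r were tested and did not pass (adjusted p = 0.129, 0.354 and 0.255), and the glucagon receptor gene Gcgr was under the limit at 5.6 to 51.3.

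Of 9 tested endocrine transcription factor genes, 6 passed the number test. Besides Meis2, Hhex, Isl1 and Pou3f4, already named, they were Pax6, which acts in the promoters of glucagon and other hormone genes (adjusted p = 0.00936; r = 0.71 with Gcg and 0.83 with Sst), and Nkx6-1, a beta cell factor (adjusted p = 0.0219; r = 0.07 with Gcg). Neurod1, with 1500 to 2702, did not pass (adjusted p = 0.0689). Of the relatives of Gc, albumin itself (Alb) was at 21.4 to 76.8 and passed (adjusted p = 0.00512), Afm was tested and did not pass, and Afp was at 0.50 to 16.0.

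The insulin genes did not pass the number test, with adjusted p = 0.149 for Ins1 and 0.215 for Ins2, yet 5 of 8 tested beta cell markers did (Ero1b, Slc2a2, Iapp, Nkx6-1 and Pdx1). With Gcg, r was 0.94 for Ero1b, 0.78 for Ins2, 0.77 for Iapp, 0.72 for Ins1 and 0.71 for Slc2a2. It was 0.15 for Pdx1, 0.09 for Gjd2 and 0.07 for Nkx6-1. The summed intensity of the 8 beta cell markers was 15594 and 14023 in PPARγ virus replicate 2 and 17275 to 22452 in the other 12 arrays, while the 7 alpha cell genes summed to 2526 and 1823 there and to 2930 to 5747 in the others. These sums had r = 0.86 and 0.96 with Gcg.

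Sums over markers of other cells had lower r with Gcg than the alpha and beta cell sums, though single markers moved closely with a hormone. Lyz2 had r = 0.88 with Ppy, Cela1 0.84 with Pyy, Tspan8 -0.81 with Gcg and Dcn -0.73 with Gcg. With Ppy the leukocyte sum had r = 0.58, and with Pyy the acinar sum had 0.52. The 11 acinar markers summed to 192 to 622, with 254 and 311 in PPARγ virus replicate 2, and r = 0.37 with Gcg; 2 of 3 tested passed the number test (Prss1 and Cela1). The 9 duct markers summed to 4237 to 5582, with 5224 and 4985 in replicate 2, and r = 0.19; 4 of 8 passed (Spp1, Tspan8, Krt19 and Car2). The 12 endothelial and stromal markers summed to 2926 to 5746, with 4527 and 4765 in replicate 2, and r = -0.06; 10 of 10 passed, with Col1a2, Col3a1, Dcn, Vim and Lum among them. The 14 leukocyte markers summed to 582 to 1258, with 644 and 746 in replicate 2, and r = 0.38; 5 of 8 passed (Lyz2, Cd74, Fcer1g, Laptm5 and Cd68). None of these markers was at 0 in any array, and their part in the hormone levels was not tested. By group, in the order null virus vehicle and compound and PPARγ virus vehicle and compound, the median sums were 225, 244, 350 and 338 for acinar markers and 4924, 4861, 4069 and 4141 for endothelial and stromal markers. The keratin gene Krt19 was the single list gene that passed a group comparison, higher with the PPARγ virus in compound (1.36 ± 0.27 SE, adjusted p = 0.0284) and in the combined comparison (1.30 ± 0.27, adjusted p = 0.0391).

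By r over 14 arrays, the genes nearest to Gcg were Ppp1r1a, which encodes an inhibitor of protein phosphatase 1 (0.98), Gprasp1 (0.98), the prothrombin gene F2 (0.97), Elapor1 (0.97) and the islet autoantigen gene Ica1 (0.97). Ppp1r1a varied much less than Gcg, from 327 to 739. Nearest to Ppy were Elapor1 (0.98), Sez6l2 (0.98), the GABA receptor subunit gene Gabrb1 (0.98), Zcchc12 (0.97) and the vitamin K epoxide reductase gene Vkorc1 (0.97). Nearest to Pyy were Gnas, which encodes the stimulatory G protein alpha subunit (0.99), Chga (0.98), Gabrb1 (0.98), Ttr (0.98) and Casz1 (0.98). Elapor1 stood near both Gcg and Ppy, and Gabrb1, which ran from 4.80 to 79.5, near both Ppy and Pyy.

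Nearest to Sst were Efr3b (0.94), Katnip (0.91), Dcaf7 (0.91), Igdcc4 (0.91) and Frmd5 (0.91). Nearest to Gc were the complement inhibitor gene Serping1 (0.94), the calcium pump gene Atp2a3 (0.94), Spa17 (0.94), Tmem64 (0.92) and the monoamine oxidase gene Maob (0.92). At the opposite end stood Ing1 (-0.96), Ercc1 (-0.96) and Rbpj (-0.96) for Gcg, Slc17a3 (-0.97), Tgif1 (-0.96) and Zfyve26 (-0.95) for Ppy, and the lactate transporter gene Slc16a1 (-0.98), Sar1a (-0.97) and Exosc8 (-0.97) for Pyy. For Sst they were Tpr (-0.96), the lipid droplet gene Plin2 (-0.95) and Jpt2 (-0.93), and for Gc Trmt6 (-0.93), Nop56 (-0.90) and Eif2b3 (-0.90). These are the extremes of the 8488 tested probe sets that name 1 gene, compared over 7 pairs. The range of each was smaller than that of Gcg, Ppy or Pyy.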

How the data were processed

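Each of 16 columns was assigned to its group by its label alone. The deposited values are intensity, 1 per probe set, on a linear scale with no detection calls. The authors had scaled them, since the mean after trimming 2% at each end was 150.0 in every column. The software that summarised probes is not given in these sources. The precision is limited by how few arrays there are.

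Null virus replicate 2 had identical values under its vehicle and compound labels (other pairs of columns shared at most 0.936% of values) and was left out. Fits used log2(intensity + 4.6), the 10th percentile of positive values, which understates changes of dim genes. A probe set was tested if over 39.3, the 40th percentile, in at least 4 arrays, and the 57 control probe sets never were. Symbols came from the platform annotation, with 0 updated through the RefSeq gene table. Of the tested probe sets 8488 named 1 gene, 235 several and 1355 none.

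A mean per group was fitted with limma 3.58.1 (R 4.3.3; eBayes with trend), with Benjamini-Hochberg adjustment over all tested probe sets and a threshold of 0.05. Numbers pair arrays within a virus: deviations from group means of same-numbered vehicle and compound arrays correlated at 0.45 to 0.70 across probe sets in 7 of 7 pairs. Across viruses r was -0.14 to 0.43 in 12 comparisons. The replicate block was therefore set within virus, and the F test of the number used the same model. The fits were tested on simulated data. Descriptions and figures used Python 3.11.15.

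The members and lists were chosen with earlier results of these data known. Named were the 5 members, up to 5 passing genes of a list by smallest adjusted p (otherwise its 2 brightest), and the 5 nearest and 3 most opposite patterns of each member; Ghsr, Neurod1, Sstr2, Sstr3, Npy4r, Gcgr, Afm and Afp fall outside that rule and were picked with their values in view. Alternatives were other pseudocounts, no filter, quantile normalization, no trend, the compared groups alone, the doubly labelled array kept, other blocks, numbers 1, 3 and 4 only, and each array left out.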

Additional observations from a re-analysis of the deposited data

Results flagged for a closer look

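Of 10 groups of 4 arrays (5 genes, vehicle and compound with the PPARγ virus), 1 held an array far from the other 3 by Dixon's test. Sst read 1254 in PPARγ virus vehicle replicate 3, and its gap to the next array was 0.931 of the group's range, above the critical value of 0.829. Chance flags about 1 group in 20. The compound array of the same number read 1279.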

How the results depend on the processing

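No member passed a group comparison in any of 775 combinations of comparison and setting (lowest adjusted p = 0.325 in limma), and the number effect was called in 119 of 120, the exception being Gc with a number shared by both viruses (F = 6.10, adjusted p = 0.0675). Counts of probe sets moved more. With the compared groups fitted alone they were 1 for the virus in vehicle, 43 for the virus in compound, 2 for the compound with the PPARγ virus and 42 for the combined effect. With the replicate block within virus they were 40 for the compound with the PPARγ virus and 5 for the interaction. With the replicate block over all groups they were 34 and 211 for the virus in vehicle and compound, 14 for the compound with the PPARγ virus, 177 combined, 3 for the interaction and 974 for the number. With numbers 1, 3 and 4 only, chosen after the data were seen, the compound with the PPARγ virus gave 3, and with the block as well 21, beside 4 for the interaction. With 1 array left out the counts ran from 3 to 7 and from 31 to 71 for the virus in vehicle and compound. They ran from 2 to 7 for the compound with the PPARγ virus, from 39 to 71 combined and from 2275 to 3361 for the number. The test of the number then also lacked the other array of that pair.

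Uncalled log2 changes near 0 changed sign. Compound with the null virus became -0.00052 for Ppy and -0.0012 for Pyy with pseudocount 16, and -0.0061 for Pyy after quantile normalization. With the doubly labelled array as vehicle it was -0.10 for Sst and 0.10 for Gc, the Sst interaction was 0.0068 and the virus effect in vehicle was 0.055 for Gc, also with all 16 columns. With that array as compound it was -0.30 for Gcg, -0.63 for Ppy and -0.46 for Pyy, with interactions of 0.30 for Ppy, 0.033 for Pyy and 0.014 for Gc. The block over all groups gave a virus effect in vehicle of 0.016 for Gcg, 0.048 for Ppy, 0.096 for Pyy and 0.042 for Gc. Numbers 1, 3 and 4 gave 0.031 for Gc in that comparison and, for Sst, 0.15 for the compound with the PPARγ virus and 0.12 for the interaction, with or without the block.

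With 1 array left out, the compound effect with the PPARγ virus ran from -1.01 to 0.61 for Gcg, -1.25 to 0.79 for Ppy, -1.13 to 0.52 for Pyy, -0.69 to 0.47 for Sst and -0.21 to 0.0016 for Gc. With the null virus it ran from -0.50 to 0.55 for Ppy, -0.41 to 0.44 for Pyy, -0.37 to 0.26 for Sst and -0.18 to 0.18 for Gc. The interaction ran from -1.11 to 0.51 for Gcg, -1.25 to 0.79 for Ppy, -1.13 to 0.52 for Pyy, -0.71 to 0.45 for Sst and -0.28 to 0.073 for Gc. The virus effect ran from -0.22 to 0.078 for Gc in vehicle, and in compound from -0.34 to 0.0044 for Gc and -0.025 to 0.98 for Sst, whose combined effect ran from -3.9e-06 to 1.00.

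The paired difference was 0.10 for Gcg, 9.7e-05 for Ppy, 4.8e-04 for Pyy, 0.025 for Sst and -0.013 for Gc in null virus pairs alone, and -0.11 for Gc in PPARγ virus pairs alone, with too few pairs in either to reach 0.05. With numbers 1, 3 and 4 it was 0.019 for Gcg, 0.086 for Sst and -0.049 for Gc, and after quantile normalization -0.081 for Gc (exact p = 0.0625). With 1 pair left out it ran from -0.22 to 0.019 for Gcg, -0.27 to -0.064 for Ppy, -0.34 to -0.094 for Pyy, -0.18 to 0.086 for Sst and -0.083 to -0.049 for Gc (exact p = 0.03125 to 0.09375). The cause of these shifts was not tested. With 3 and 4 pairs, changes within the intervals given were not detectable, and whether replicate numbers are separate preparations is unknown.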

Other observations

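The array deposited under both null virus labels as replicate 2 entered no comparison of the report, apart from its levels being set beside the null virus arrays, and was kept in some alternative fits. It read 1043 for Gcg, 312.9 for Ppy, 237 for Pyy and 1551 for Gc, below all 6 null virus arrays in each case. For Sst it read 335, and 1 of the 6 null virus arrays was higher.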
